A study of Mus musculus with 48 samples.

Results

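The genes described here are 7 that mark or serve type 1 conventional dendritic cells (cDC1), the dendritic cells specialised in cross-presentation: Xcr1, Clec9a, Cadm1, Wdfy4, Naaa, Batf3 and Itgae. They were chosen by name, from what is known of these cells, by a rule that uses no measured value but with earlier results of these data known, and are 7 of the 55487 genes of the deposited tables. All 7 were found in both tables. Lymph nodes of wild type mice had been digested, and 4 kinds of myeloid cell were sorted from them for RNA sequencing. The macrophages of the medullary sinus (MSM) and of the subcapsular sinus (SSM) sit along the lymph spaces, migratory dendritic cells (mDC) come to the node from tissue, and resident dendritic cells (rDC) live in the node. Nodes carried the label LN or TDLN, for tumor-draining, and the treatment was PBS, the saline control, or cisplatin (CIS), a platinum drug that crosslinks DNA. This gave 16 groups of 3 libraries, 48 in all, of polyA RNA prepared with a stranded kit. The labels give neither the tissue drained by the LN nodes, nor the tumor, the dose, the age or sex of the mice, the sorting markers, or whether the libraries within a group are from different mice. The p-values below therefore measure the spread between these libraries, which may be technical.

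Cross-presentation is the display of peptides from engulfed material on MHC class I, which lets a dendritic cell that is not itself infected or transformed prime CD8 T cells. The cDC1 lineage depends on the transcription factors BATF3 and IRF8. In lymph nodes it occurs as a resident form and as a migratory form that carries antigen from tissue. Xcr1 encodes the receptor for the chemokine XCL1, which is made by NK cells and CD8 T cells. Clec9a encodes a lectin receptor (DNGR-1) that binds actin filaments exposed by dead cells and signals through SYK. Cadm1 encodes an adhesion molecule that binds CRTAM on activated lymphocytes. Wdfy4 encodes a BEACH-domain protein required for cross-presentation of cell-associated antigen. Naaa encodes a lysosomal enzyme that hydrolyses N-acylethanolamines. Itgae encodes CD103, the integrin chain that pairs with the product of Itgb7 and binds E-cadherin, and which T cells also carry.

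On GRCm38 with GENCODE vM21 all 7 are protein coding. Xcr1 (ENSMUSG00000060509) lies on chromosome 9 from 123852315 to 123862029 on the minus strand, and Cadm1 (ENSMUSG00000032076) on the same chromosome from 47530173 to 47857637 on the plus strand. Clec9a (ENSMUSG00000046080) lies on chromosome 6 from 129408862 to 129424763 on the plus strand. Wdfy4 (ENSMUSG00000051506), the gene with the most exons of the 7, lies on chromosome 14 from 32959547 to 33185508 on the minus strand. Naaa (ENSMUSG00000029413) lies on chromosome 5 from 92257659 to 92278170 on the minus strand. Batf3 (ENSMUSG00000026630) lies on chromosome 1 from 191097847 to 191108945, and Itgae (ENSMUSG00000005947) on chromosome 11 from 73090583 to 73147446, both on the plus strand.

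RefSeq promoter windows (GRCm38.p6, 250 bases before to 50 after the RefSeq start) were matched for 5 of the 7, which leaves Cadm1 and Itgae. For Batf3 and Wdfy4 the window lies inside the gene as placed above, so the RefSeq start differs from the GENCODE start. The windows of Xcr1, Clec9a and Batf3 are shown because Xcr1 and Clec9a were highest in rDC and Batf3 in mDC. They are written 5′ to 3′ on the strand of the gene, and capitals mark CG dinucleotides.
Xcr1, chr9:123861980-123862279, minus strand: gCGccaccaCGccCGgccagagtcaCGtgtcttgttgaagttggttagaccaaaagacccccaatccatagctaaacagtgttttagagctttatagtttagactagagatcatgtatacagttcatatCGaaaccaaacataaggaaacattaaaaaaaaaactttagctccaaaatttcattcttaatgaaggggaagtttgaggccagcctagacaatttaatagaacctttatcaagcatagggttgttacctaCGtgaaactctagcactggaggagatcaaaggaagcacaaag
Clec9a, chr6:129408612-129408911, plus strand: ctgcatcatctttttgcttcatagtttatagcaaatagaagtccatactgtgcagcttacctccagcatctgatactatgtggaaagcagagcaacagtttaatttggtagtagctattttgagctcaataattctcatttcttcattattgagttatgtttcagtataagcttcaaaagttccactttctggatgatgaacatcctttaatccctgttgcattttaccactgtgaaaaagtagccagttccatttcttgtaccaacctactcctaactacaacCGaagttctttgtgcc
Batf3, chr1:191098164-191098463, plus strand: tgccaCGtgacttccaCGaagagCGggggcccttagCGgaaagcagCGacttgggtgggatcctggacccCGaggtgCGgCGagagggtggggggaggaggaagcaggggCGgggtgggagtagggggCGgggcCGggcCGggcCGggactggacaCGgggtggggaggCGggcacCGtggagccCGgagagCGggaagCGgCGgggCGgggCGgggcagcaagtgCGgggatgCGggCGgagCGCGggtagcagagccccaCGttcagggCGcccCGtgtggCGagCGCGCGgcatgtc
The window of Batf3 holds 34 CG dinucleotides, more than 92.3% of the 32851 windows of the table, whose median is 7. Clec9a has 1, more than 5.43% of windows, and Xcr1 has 6, Wdfy4 5 and Naaa 12. The letters TATAAA, searched on both strands, occur in the windows of Xcr1 and Clec9a, 2 of the 5, and in 13.6% of all windows. The letters TGANTCA (AP-1 and BATF), likewise searched on both strands, occur in 7.81% of all windows and in 0 of the 5. The 2 patterns share no stretch of letters that could match both, and a match or its absence describes these letters only.

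Depth was 6.46 to 10.43 M counts in macrophage libraries and 2.00 to 3.84 M in 18 dendritic cell libraries, while the 3 rDC LN PBS and 3 mDC TDLN PBS libraries held 10.73 to 15.48 M. Levels are given as counts per M (CPM), scaled within each of 2 tables, 1 of dendritic cells and 1 of macrophages. The tables were normalized separately, so a level set across them is approximate. The labels of the dendritic cells went with their markers: 7 genes of migratory or mature dendritic cells summed to 30162.5 to 37332.7 CPM in mDC libraries and 1001.0 to 1622.4 CPM in rDC libraries, and Ccr7 averaged 14440 CPM in mDC LN PBS against 1067 CPM in rDC LN PBS. Among the macrophages 4 libraries went against their labels. Library 2 of MSM LN PBS, library 2 of SSM LN PBS, library 1 of MSM TDLN CIS and library 3 of SSM TDLN CIS had correlations of 0.988 and above with libraries of the other macrophage label, and of at most 0.751 with those of their own. They are called the crossed libraries below. For the 7 genes the counts called in macrophages, and part of the values, are given with and without them, where the latter fit leaves out all 4 at once. The 4 were picked from these same data, so fits without them favour a difference between the labels and small standard errors. Counts from the other gene lists, sums of markers, the order of the 16 groups and correlations with Xcr1 use all libraries unless stated. In a group that holds a crossed library the range of a sum therefore spans both labels. The MSM LN CIS libraries were poor in macrophage genes: the sum of 10 macrophage markers was 214.9 to 235.9 CPM against 974.8 to 4390.3 CPM in the other macrophage groups, Lyve1 was at 0 and Siglec1, the sinus macrophage marker CD169, averaged 0.0955 CPM.

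**Figure D1:**
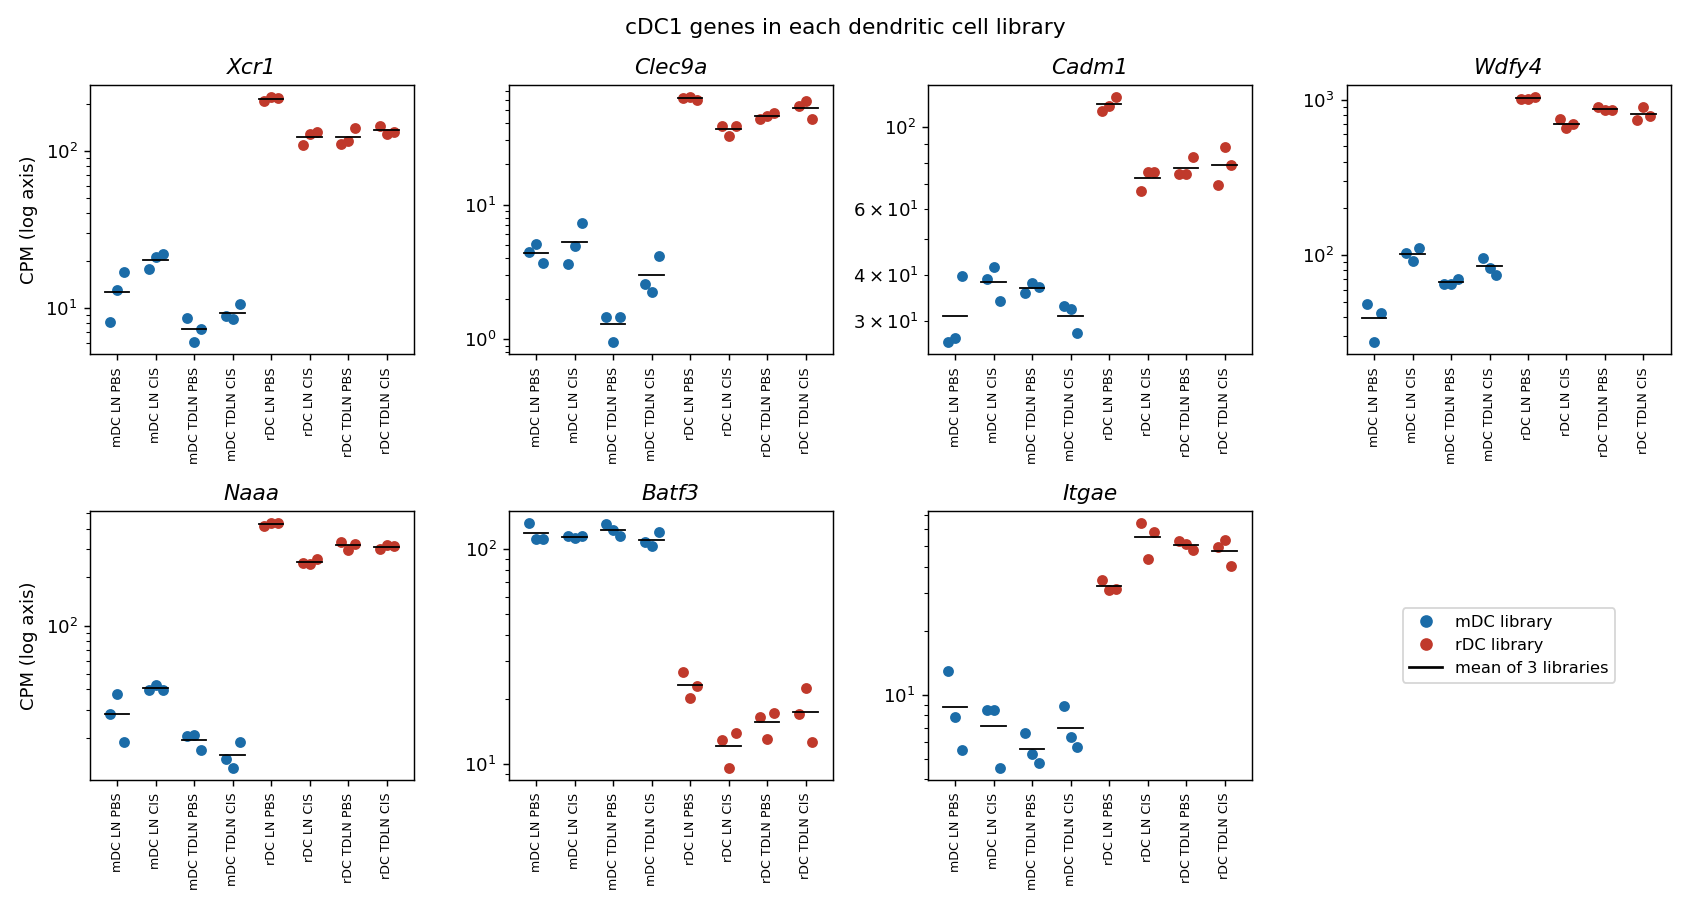
Level of each of the 7 genes in every dendritic cell library (points, CPM, log axis) for the 8 groups of mDC and rDC, with the mean of 3 libraries as a line. Batf3 is higher in every mDC library than in any rDC library, and the other 6 genes are lower.

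The 12 libraries of mDC and the 12 of rDC did not overlap for any of the 7 genes. Xcr1, the XCL1 receptor, ran from 109.9 to 220.4 CPM in rDC with a median of 132 CPM, and from 6.036 to 22.2 CPM with a median of 9.717 CPM in mDC. Clec9a, the dead-cell receptor, ran from 32.42 to 62.52 CPM (median 46.69) in rDC and from 0.9531 to 7.248 CPM (median 3.65) in mDC. Both receptors were thus low but detected in every mDC library. Wdfy4 ran from 653.3 to 1037 CPM (median 858.8) in rDC and from 27.53 to 111.9 CPM (median 72.38) in mDC, and Naaa from 241.1 to 435.6 CPM (median 316.2) and from 12.99 to 42.69 CPM (median 20.67). The adhesion gene Cadm1 stood closest, with 67.2 to 120 CPM (median 77.18) in rDC and 26.35 to 41.99 CPM (median 34.85) in mDC. Itgae ran from 30.95 to 64.24 CPM (median 48.69) in rDC and from 4.53 to 12.97 CPM (median 6.455) in mDC. Batf3 had the opposite order, with 103.2 to 132.5 CPM (median 115.2) in mDC and 9.553 to 26.71 CPM (median 16.78) in rDC.

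Per length, in deposited transcripts per M (TPM), the leading gene of the 7 was Naaa in rDC, with a median of 315.1 TPM over 12 libraries. It was followed by Wdfy4 at 147.3, Cadm1 at 76.25, Clec9a at 52.53, Xcr1 at 51.8, Batf3 at 38.38 and Itgae at 21.5 TPM. In mDC Batf3 led with a median of 207.3 TPM (198.6 to 236.8). Cadm1 followed at 26.41, Naaa at 18.02 and Wdfy4 at 11.45, while Xcr1 at 3.16, Clec9a at 3.00 and Itgae at 2.365 TPM were the lowest. Clec9a and Xcr1 overlapped in TPM in both cell types, so their order is not set.

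Tested within each node and treatment, all 7 genes differed between mDC and rDC in each of the 4 conditions (edgeR's quasi-likelihood test, Benjamini-Hochberg adjusted over all genes, limit 0.05, log2 fold change ± standard error). The background is high, since 66.6% of the 14548 genes tested were called in LN PBS, 54.9% in LN CIS, 72.4% in TDLN PBS and 56.1% in TDLN CIS, so the count of 7 of 7 is read beside those shares. In LN PBS Wdfy4 was lower in mDC by a log2 value of -4.66 ± 0.121 (adjusted p = 1.67e-23), Xcr1 by -4.11 ± 0.154 (1.23e-19), Naaa by -3.96 ± 0.123 (1.40e-21) and Clec9a by -3.81 ± 0.199 (3.42e-16). These 4 differences were the larger ones. Cadm1 was lower by -1.88 ± 0.122 (4.98e-14) and Itgae by -1.85 ± 0.222 (2.49e-08), while Batf3 was higher in mDC by 2.35 ± 0.125 (5.20e-16). The median log2 fold change of the 7 genes was -3.81 against -0.06 over all genes tested.

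The sizes varied by condition, and whether they differ between conditions was not tested. The log2 difference of Xcr1 was -2.62 in LN CIS, -4.07 in TDLN PBS and -3.86 in TDLN CIS. That of Clec9a was -2.84, -5.12 and -4.11 in the same order, that of Wdfy4 -2.78, -3.70 and -3.26, and that of Naaa -2.61, -4.04 and -4.32. Cadm1 gave -0.92, -1.07 and -1.35, Itgae -2.90, -3.20 and -2.78, and Batf3 3.23, 2.96 and 2.64. The medians of the 7 were -2.62, -3.70 and -3.26, against -0.08, 0.02 and -0.06 over all genes.

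**Figure D2:**
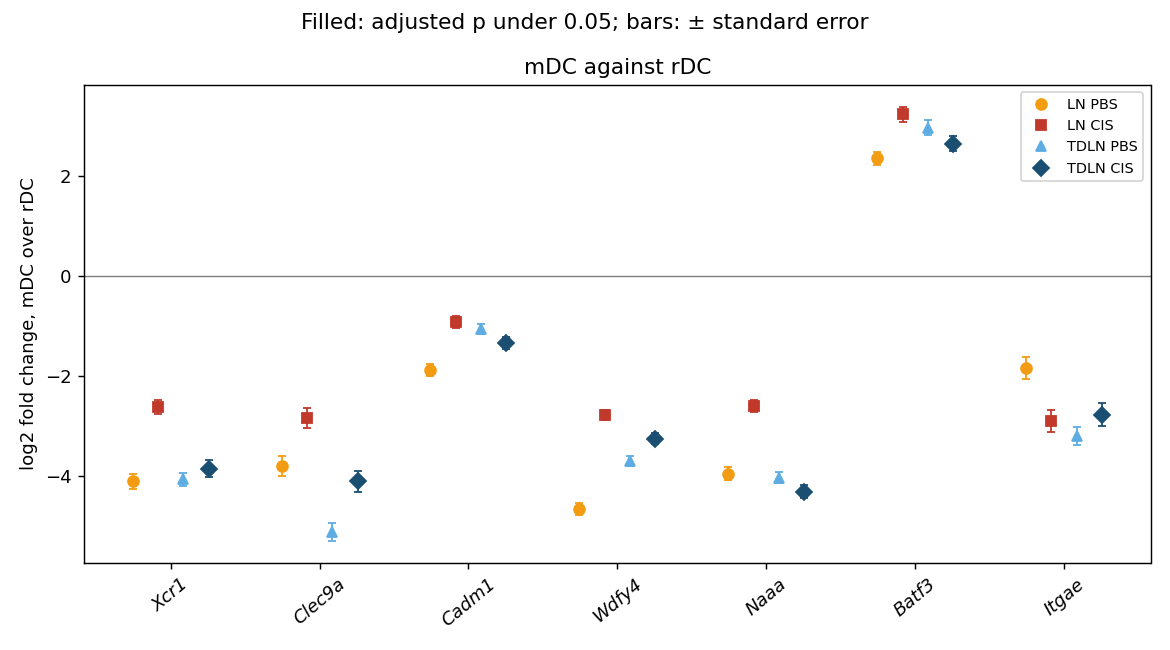
Log2 fold change of mDC over rDC (points, with standard errors) for the 7 genes in each of 4 conditions of node and treatment. In all 4 conditions Batf3 lies above 0 and the other 6 genes lie below 0, with Cadm1 nearest to 0 among them in 3 of the 4.

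Of 23 other genes known from cDC1, 6 were higher and 17 lower in mDC than in rDC in LN PBS (median -1.61), 7 and 14 in LN CIS (-1.17), 6 and 17 in TDLN PBS (-2.03), and 5 and 17 in TDLN CIS (-1.74). In LN PBS Ppt1, a lysosomal thioesterase, was lower in mDC by a log2 value of -3.80, and Rab7b, a small GTPase of late endosomes, by -4.67. Il12b, the p40 chain of IL-12, was higher in mDC by 3.37 and Id2, an inhibitor of E proteins, by 3.06. Ly75, the endocytic receptor DEC-205, was higher in mDC in LN CIS by 2.74. Of 9 genes whose products act with the 7 (Irf8 and Id2 are in both lists), 2 were higher and 5 lower in LN PBS, with Id2 again higher, and Itgb7 lower by -3.41, Syk by -1.52 and Cdh1, which encodes E-cadherin, by -2.97. Itgae and its partner Itgb7 were thus both lower in mDC. Those 9 gave 2 higher and 5 lower in LN CIS and in TDLN CIS, and 3 and 6 in TDLN PBS, with medians of -1.25, -1.17, -1.33 and -2.18 in LN PBS, LN CIS, TDLN CIS and TDLN PBS.

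Markers of other cells moved with this comparison. The rDC libraries carried 7 plasmacytoid dendritic cell markers at a summed 2299.5 to 4618.8 CPM against 134.5 to 187.0 CPM in mDC, and 6 B cell markers at 1300.7 to 2845.9 CPM against 125.2 to 351.0 CPM. The 7 T cell markers, Cd8a among them, summed to 490.6 to 1127.7 CPM in rDC and 107.9 to 217.3 CPM in mDC. For 4 monocyte markers the sums were 563.0 to 866.4 CPM in rDC and 19.9 to 62.8 CPM in mDC. In the other direction 3 Langerhans cell markers summed to 1084.0 to 1758.4 CPM in mDC and 51.3 to 75.4 CPM in rDC. None of these markers was at 0 in a dendritic cell group, and their part in the differences was not tested. In bulk libraries fewer cells of a type and less RNA of a gene per cell cannot be told apart, which holds for every result here.

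In rDC of the LN all 7 genes changed with cisplatin, 6 falling and Itgae rising, where 17.9% of the 14023 genes tested were called. Xcr1 read 207.6, 220.4 and 218.5 CPM in the PBS libraries and 109.9, 128.8 and 131.7 CPM after cisplatin (215.5 ± 6.95 and 123.5 ± 11.8, mean ± SD, n = 3). Clec9a read 61.72, 62.52 and 59.91 CPM with PBS and 38.44, 32.42 and 38.34 CPM with cisplatin. Naaa read 418.5, 435.6 and 434.0 CPM, then 244.1, 241.1 and 258.4 CPM. For these 3 genes every cisplatin library lay below every PBS library. Wdfy4 read 1011, 1004 and 1037 CPM, then 753.7, 653.3 and 694.6 CPM. Cadm1 read 110.3, 113.9 and 120.0 CPM, then 67.2, 75.55 and 75.43 CPM. Batf3, the lineage factor, read 26.71, 20.16 and 23.01 CPM, then 12.9, 9.553 and 13.94 CPM. The groups of these genes did not overlap either. Itgae read 34.75, 30.95 and 31.54 CPM with PBS and 64.24, 43.71 and 58.01 CPM with cisplatin, all 3 above the PBS libraries.

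The log2 fold change of cisplatin over PBS was -0.74 ± 0.0923 for Xcr1 (edgeR adjusted p = 4.50e-05), -0.73 ± 0.0708 for Naaa (3.66e-06), -0.69 ± 0.116 for Clec9a (0.000749), -0.59 ± 0.0968 for Cadm1 (0.000568) and -0.47 ± 0.0838 for Wdfy4 (0.00111). Batf3 gave -0.87 ± 0.197 (0.00585) and Itgae 0.84 ± 0.133 (0.000468). The median of the 7 was -0.69 against 0.01 over all genes tested. All 7 calls were made with any 1 of the 6 libraries left out, although without rDC LN CIS 2 the genes called in all were 1581 in place of 2509. The rDC LN PBS libraries were the deepest of the rDC, and with them thinned to 3 M counts 6 of the 7 calls were made: Xcr1 gave -0.75, while Batf3 gave -0.62 (adjusted p = 0.0714). They held 10.73 to 14.87 M counts against 2.99 to 3.57 M in rDC LN CIS. Thinning evens out the counts alone, so cisplatin and whatever made these libraries deep cannot be told apart. The same limit holds wherever rDC LN PBS or mDC TDLN PBS is set against a group of lower depth.

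Of the 23 other cDC1 genes 17 fell in this comparison and 0 rose, with a median of -0.52. Il12b fell by 1.90 on the log2 scale, Cxcl9, a chemokine that draws CXCR3-bearing T cells, by 1.13, Tlr11, an endosomal sensor of profilin, by 0.93 and Rab7b by 0.90. Of the 9 partner genes 4 rose and 2 fell (median 0.23). Xcl1, the ligand of XCR1, rose by 2.65 ± 0.270 (adjusted p = 6.23e-06), from a mean of 2.14 to 13.2 CPM, and Crtam, the ligand of CADM1, by 2.13 ± 0.457 (0.00428). Flt3, the growth factor receptor of dendritic cells, fell by 0.62 and Id2 by 0.67. Xcl1 and Crtam are genes of NK and T cells, and lymphocyte markers moved with them. The 6 NK markers, each of which rose, summed to 6.4 to 11.9 CPM with PBS and 75.8 to 83.9 CPM with cisplatin, and Cd3e averaged 4.36 and then 30.4 CPM. The 7 T cell markers summed to 490.6 to 546.9 and 561.6 to 590.0 CPM, and 4 rose and 1 fell. That list holds Cd8a, which is also among the 23 other cDC1 genes, so its sum does not measure T cells alone. Markers of dendritic cells in general also moved: 5 of 7 fell and 0 rose, from sums of 44650.8 to 46580.6 to 32501.2 to 35830.1 CPM, and 4 of the 10 cDC2 markers tested fell and 1 rose. The part of these shifts in the fall of the cDC1 genes was not tested.

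In rDC of the TDLN none of the 7 genes was called for cisplatin by edgeR, where 1.01% of genes were called. At an unadjusted p under 0.05 the count was also 0, and DESeq2 called 0. Library 2 of rDC TDLN CIS stood apart from the other 2 of its group, with a chi-square per degree of freedom of 13.03 and 12.63 against them, where they gave 1.92 with each other. Without it edgeR called 613 genes in place of 142, and 0 of the 7. Xcr1 read 110.4, 116.2 and 139.7 CPM with PBS and 144.5, 129.0 and 132.2 CPM with cisplatin, Clec9a 43.24, 45.53 and 47.84 then 53.72, 58.68 and 42.87 CPM, and Naaa 333.4, 296.6 and 319.9 then 298.8, 317.9 and 314.6 CPM. The groups overlapped for each of these. Wdfy4 read 893.0, 859.1 and 858.6 then 736.9, 900.1 and 789.2 CPM, Cadm1 74.67, 74.66 and 83.07 then 69.84, 88.28 and 78.8 CPM, Batf3 16.54, 13.06 and 17.32 then 17.01, 22.65 and 12.68 CPM, and Itgae 52.69, 50.89 and 48.14 then 49.25, 53.54 and 40.16 CPM. These overlapped too. The log2 fold changes were 0.14 ± 0.0970 for Xcr1, 0.19 ± 0.122 for Clec9a, 0.03 ± 0.103 for Cadm1, -0.11 ± 0.0842 for Wdfy4, -0.03 ± 0.0717 for Naaa, 0.16 ± 0.217 for Batf3 and -0.09 ± 0.143 for Itgae. Of the 23 other cDC1 genes 0 were called by edgeR, 6 had an unadjusted p under 0.05 and DESeq2 called 1 higher and 1 lower (median -0.04). Of the 9 partners 0 were called by edgeR, 2 had an unadjusted p under 0.05 and DESeq2 called 0 (median 0.01).

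The cisplatin effect in rDC differed between the nodes for 5 of the 7 genes by the test of the difference itself (effect in the TDLN minus effect in the LN), where 5.31% of genes were called. Those are 745 genes, and without rDC TDLN CIS 2 there were 1784. The difference was 0.88 ± 0.134 on the log2 scale for Xcr1 (adjusted p = 0.000507), 0.87 ± 0.169 for Clec9a (0.00409), 0.69 ± 0.101 for Naaa (0.000332), 0.62 ± 0.142 for Cadm1 (0.0139) and -0.92 ± 0.195 for Itgae (0.00839). The fall of the first 4 and the rise of Itgae were thus seen in the LN and differed in the TDLN. The difference includes the rDC LN PBS libraries, the deepest of the rDC, and is not independent of the other comparisons that use them. Xcr1 averaged 215.5 CPM there, against 123.5 in LN CIS, 122.1 in TDLN PBS and 135.2 in TDLN CIS. Itgae averaged 32.41 CPM there, against 55.32, 50.57 and 47.65. With the deep libraries thinned to 3 M counts 5 of the 7 were also called. Wdfy4 at 0.36 ± 0.119 (0.0849) and Batf3 at 1.03 ± 0.294 (0.0505) missed the limit. Wdfy4 was called without rDC LN CIS 1 (0.47, adjusted p = 0.0349), TDLN CIS 1 (0.47, 0.0179) or TDLN CIS 2 (0.31, 0.0173), and Batf3 without LN PBS 2 (1.15, 0.0414), TDLN CIS 1 (1.10, 0.0495) or TDLN CIS 3 (1.25, 0.0139). DESeq2 called both (adjusted p = 0.0225 for Wdfy4 and 0.0308 for Batf3), hence all 7, and edgeR with DESeq2's size factors called Batf3 (0.0476). Without the low-count filter edgeR also called both (0.62, 0.00125 and 1.285, 0.000227). That fit moved the median over all genes from -0.02 to -0.20, so its calls are read beside a shift. With the filter the median of the 7 was 0.69 against -0.02 over all genes. Among the 23 other cDC1 genes 10 were higher and 0 lower (median 0.44), among them Cxcl9 at 1.63, Il12b at 1.42, Tlr11 at 1.07 and Rab7b at 0.95. Among the 9 partners 2 were higher and 2 lower (median -0.18), with Xcl1 at -2.32.

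**Figure D3:**
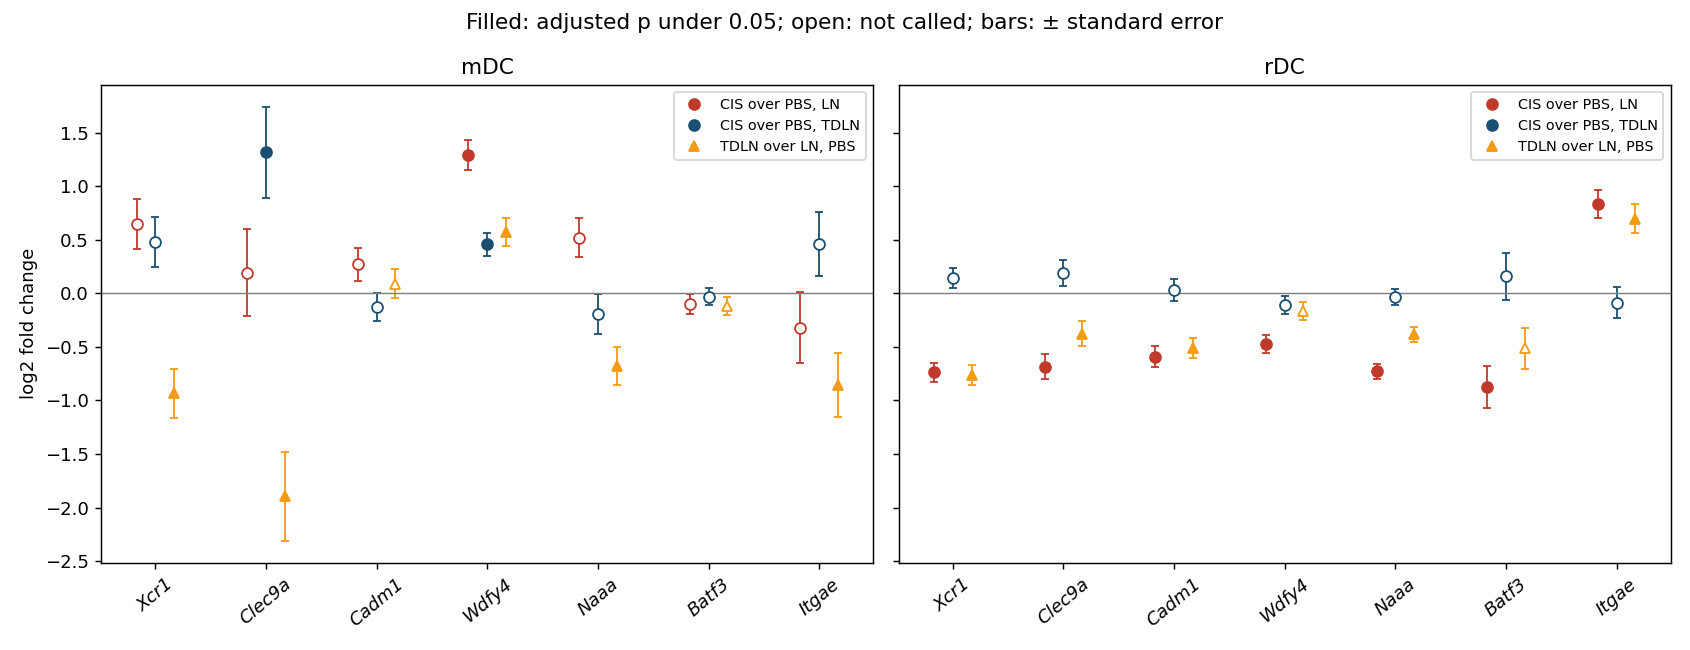
Log2 fold change (with standard error) of the 7 genes in mDC and in rDC for cisplatin over PBS in the LN, cisplatin over PBS in the TDLN, and TDLN over LN with PBS; filled symbols passed the adjusted limit of 0.05. In rDC all 7 symbols are filled for cisplatin in the LN and none for cisplatin in the TDLN.

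With PBS, rDC of the TDLN differed from rDC of the LN in 5 of the 7 genes, where 27.0% of genes were called. This comparison uses the same 3 rDC LN PBS libraries as that of cisplatin in the LN, so the 2 sets of values are not independent. Xcr1 was lower in the TDLN by -0.76 ± 0.0928 (adjusted p = 1.75e-05), Cadm1 by -0.51 ± 0.0968 (0.00115), Naaa by -0.38 ± 0.0702 (0.000886) and Clec9a by -0.37 ± 0.114 (0.0228), while Itgae was higher by 0.70 ± 0.135 (0.00131). For each of these 5 the 3 TDLN libraries and the 3 LN libraries did not overlap. The Clec9a call was lost without rDC LN PBS 1 (adjusted p = 0.0572), LN PBS 2 (0.0506), TDLN PBS 1 (0.0887) or TDLN PBS 2 (0.0502), and with the deep libraries thinned (-0.29, 0.112). Wdfy4 at -0.17 ± 0.0835 (0.146) and Batf3 at -0.51 ± 0.191 (0.0559) were not called, though Batf3 was without rDC LN PBS 2 (-0.63, 0.0462). With only the 6 compared libraries fitted both were called (-0.19, adjusted p = 0.00344 for Wdfy4 and -0.53, 0.0105 for Batf3), which made 7 of 7. Both were called without the low-count filter too (-0.43, 0.000462 and -0.77, 0.000255). That fit moved the median over all genes from 0.01 to 0.19, so its calls are read beside a shift. With the filter the median of the 7 was -0.38 against 0.01 over all genes. In the list of 23 other cDC1 genes 3 were higher and 12 lower (median -0.42). Cd36, a scavenger receptor, was lower by -1.11, Cxcl9 by -1.03 and Id2 by -0.99, while Irf8, the lineage factor that acts with BATF3, was higher by 0.67. Of the 9 partners 4 were higher and 1 lower (median 0.38). Beside this the 7 plasmacytoid markers, all of them higher in the TDLN, summed to 2299.5 to 2507.3 CPM in the LN and 3986.5 to 4233.2 CPM in the TDLN. The 7 T cell markers, Cd8a among them, summed to 490.6 to 546.9 and 1073.5 to 1127.7 CPM. The 6 B cell markers were all lower in the TDLN, at 1433.2 to 1520.2 CPM against 2453.4 to 2845.9 CPM. Their part was not tested.

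After cisplatin, 2 of the 7 differed between rDC of the 2 nodes, where 14.8% of genes were called. Clec9a was higher in the TDLN by 0.50 ± 0.124 (adjusted p = 0.0115) and Naaa by 0.31 ± 0.0721 (0.00679). The Clec9a call was lost without rDC LN CIS 2 (0.44, adjusted p = 0.0548), and both were lost when only the 6 libraries compared were fitted (0.0753 for Clec9a and 0.0662 for Naaa). Xcr1 at 0.12 ± 0.0966, Cadm1 at 0.11 ± 0.103, Wdfy4 at 0.20 ± 0.0844, Batf3 at 0.52 ± 0.223 and Itgae at -0.22 ± 0.141 were not called. Wdfy4 was called without TDLN CIS 1 (0.28, 0.0301) and Batf3 without TDLN CIS 3 (0.71, 0.0404). Of the 23 other cDC1 genes 10 were higher and 2 lower (median 0.20), led by Cd8a at 0.69, Irf8 at 0.80, Tlr12 at 0.94 and Il12b at 0.90. Among the 9 partners 3 were higher and 1 lower (median 0.01), the lower one being Xcl1 at -1.84. Beside this the 7 plasmacytoid markers summed to 2466.3 to 2604.1 CPM in rDC LN CIS and 3785.5 to 4618.8 CPM in rDC TDLN CIS, the 6 B cell markers to 2589.9 to 2780.0 and 1300.7 to 1461.4 CPM, and the 6 NK markers to 75.8 to 83.9 and 26.0 to 30.5 CPM. Their part was not tested. Without rDC LN CIS 3 the genes called in all were 1293 in place of 2075.

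In mDC the gene that changed with cisplatin in both nodes was Wdfy4. It read 48.23, 27.53 and 42.54 CPM in LN PBS and 102.6, 91.73 and 111.9 CPM in LN CIS, with no overlap. The log2 fold change was 1.29 ± 0.139 (edgeR adjusted p = 5.45e-07), and Wdfy4 was the 1 gene of the 7 called there, where 11.0% of 12519 genes were called. In the TDLN it read 65.17, 65.21 and 70.43 CPM with PBS and 96.06, 83.13 and 74.34 CPM with cisplatin, again with no overlap (0.46 ± 0.108, adjusted p = 0.00268). That call was lost without the low-count filter (0.18, 0.150), where the median over all genes was 0.25 against -0.01 with it. The cisplatin effect on Wdfy4 differed between nodes by -0.83 ± 0.178 (0.00248), where 15.6% of genes were called. With PBS Wdfy4 was higher in the TDLN than in the LN by 0.57 ± 0.133 (0.00228).

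Xcr1 in mDC read 8.107, 12.92 and 16.93 CPM in LN PBS, 17.6, 21.17 and 22.2 in LN CIS, 8.591, 6.036 and 7.36 in TDLN PBS and 8.867, 8.535 and 10.57 in TDLN CIS. The LN libraries after cisplatin were the highest and those of the 2 TDLN groups overlapped. Its cisplatin effect was 0.65 ± 0.234 in the LN (adjusted p = 0.0777), not called, although it was without mDC LN PBS 3 (0.95, 0.0254). In the TDLN it was 0.48 ± 0.233 (0.133), and 0.93 (0.0222) with the deep mDC TDLN PBS libraries thinned to 3 M counts. Between nodes Xcr1 was lower in the TDLN, by -0.93 ± 0.233 with PBS (0.00402) and by -1.11 ± 0.235 with cisplatin (0.00174). The PBS value lost its call without mDC LN PBS 3 (-0.63, 0.0943).

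Clec9a was near the floor of detection in mDC. In the TDLN it read 1.467, 0.9531 and 1.472 CPM with PBS (14, 12 and 19 counts) and 2.586, 2.227 and 4.151 CPM with cisplatin (7, 6 and 11 counts). The cisplatin libraries lay above the PBS libraries at 1.32 ± 0.427 (adjusted p = 0.0241), where 27.3% of genes were called. The call was lost without TDLN CIS 1 (0.0515), TDLN CIS 3 (1.00, 0.174) or TDLN PBS 2 (0.0896), and with the deep libraries thinned (0.141). In the LN Clec9a read 4.459, 5.056 and 3.66 CPM with PBS and 3.641, 4.94 and 7.248 CPM with cisplatin, which overlap (0.19 ± 0.407). With PBS it was lower in the TDLN by -1.90 ± 0.416 (0.00143).

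Naaa in mDC read 27.97, 37.64 and 18.76 CPM in LN PBS, 39.44, 42.69 and 39.86 in LN CIS, 20.53, 20.81 and 16.73 in TDLN PBS and 14.78, 12.99 and 18.87 in TDLN CIS. Cisplatin gave 0.52 ± 0.182 in the LN (adjusted p = 0.0716, but 0.74 and 0.0107 without mDC LN PBS 2) and -0.19 ± 0.188 in the TDLN (0.492). Naaa was lower in the TDLN by -0.68 ± 0.176 with PBS (0.00565), a call lost without mDC LN PBS 2 (-0.45, 0.0698), and by -1.38 ± 0.193 with cisplatin (1.42e-05). Its node difference of the cisplatin effect was -0.71 ± 0.261 (0.0688), and it was called without mDC LN PBS 2 (-0.94, 0.0114), TDLN CIS 3 (-0.88, 0.0399) or TDLN PBS 3 (-0.82, 0.0449).

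Batf3, Cadm1 and Itgae, the other 3, were called for cisplatin in neither node of mDC. Without the low-count filter edgeR called Batf3 (-0.31, adjusted p = 0.00202), Cadm1 (-0.40, 0.0123) and Naaa (-0.46, 0.0304) lower with cisplatin in the TDLN. Clec9a (1.045, 0.107) and Wdfy4 (0.18, 0.150) were not called, so the 3 genes called were other than the 2 above. Each of these values was lower than with the filter, while the median over all genes rose from -0.01 to 0.25. The change of calls is thus read beside a shift shared by the members named. Batf3 ran from 103.2 to 132.5 CPM over the 12 libraries, with neighbouring groups overlapping and means of 118.8 CPM in LN PBS, 114.5 in LN CIS, 123.1 in TDLN PBS and 110.2 in TDLN CIS. Its tests gave -0.10 ± 0.0907 for cisplatin in the LN, -0.03 ± 0.0785 in the TDLN and -0.12 ± 0.0810 for TDLN over LN with PBS, the last with the opposite sign to the means, which are scaled over both dendritic cell types. Cadm1 gave 0.27 ± 0.152, -0.13 ± 0.130 and 0.09 ± 0.137. Itgae, at 4.53 to 12.97 CPM, gave -0.32 ± 0.333 and 0.46 ± 0.297 for cisplatin, and was lower in the TDLN with PBS by -0.86 ± 0.298 (adjusted p = 0.0334). That call was lost without mDC LN PBS 1 (-0.39, 0.480), TDLN PBS 2 (0.0824) or TDLN PBS 3 (0.101) and with the deep libraries thinned (0.134).

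In counts, 5 of the 7 differed between mDC of the TDLN and of the LN with PBS (29.1% of genes called), 1 higher and 4 lower, with a median of -0.68 against 0.01 over all genes. After cisplatin 2 differed (14.8% called), both lower, with a median of -0.30 against 0.00. For cisplatin the median of the 7 was 0.27 in the LN and 0.46 in the TDLN, against -0.01 over all genes in both. Among the 23 other cDC1 genes 5 rose and 3 fell with cisplatin in the LN (median -0.01), with Btla, an inhibitory receptor, at 1.37, Cd36 at 1.68, Ppt1 at 0.77 and Ly75 at -0.42. In the TDLN 6 rose and 2 fell (median 0.16), with Irf8 at 0.51, Btla at 0.67, Id2 at -0.33 and Tlr11 at -0.63. Between nodes 3 were higher and 11 lower in the TDLN with PBS (median -0.29), among the lower ones Irf8 at -0.47, Nfil3, a factor upstream of cDC1 development, at -0.49, Il12b at -0.52 and Cd8a at -0.67. With cisplatin 2 were higher and 8 lower (median -0.21), with Ppt1 at -0.98 and Ly75 at 0.79. The node difference of the cisplatin effect was called higher for 4, led by Irf8 at 0.76, and lower for 5 (median 0.15). Of the 9 partner genes 7 were tested in mDC, and 1 to 2 were higher and 1 lower in each of these 5 comparisons, with medians from -0.20 to 0.07. Among other cells' markers, the 6 B cell markers summed to 125.2 to 140.5 CPM in mDC LN PBS, 263.7 to 296.7 in LN CIS, 220.1 to 239.0 in TDLN PBS and 329.8 to 351.0 in TDLN CIS, and the 3 Langerhans markers to 1216.3 to 1388.9, 1170.8 to 1217.2, 1675.0 to 1758.4 and 1084.0 to 1111.4 CPM. Their part was not tested.

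The order across all 16 groups sets 2 tables side by side and includes the crossed libraries, so it is read with caution. Xcr1 was highest in rDC LN PBS, followed by the other 3 rDC groups, whose ranges overlap. SSM TDLN PBS at 66.77 CPM and MSM TDLN PBS at 36.75 CPM came next, each apart from its neighbours, and MSM LN CIS, at 0 counts in all 3 libraries, came last. Clec9a had the 4 rDC groups first as well, and SSM TDLN PBS at 9.782 CPM stood apart from the groups on either side. Cadm1 was likewise highest in the 4 rDC groups, with SSM TDLN PBS next at 50.27 CPM and MSM LN PBS last at 11.57 CPM. For Wdfy4 the 4 rDC groups, from 1017 CPM in LN PBS to 700.5 CPM in LN CIS, stood apart from SSM LN PBS at 113.4 CPM. SSM TDLN PBS was last for Wdfy4 at 21.61 CPM, but without its crossed library MSM TDLN CIS averaged 19.09 CPM. Naaa ran from 429.4 CPM in rDC LN PBS to 247.9 CPM in rDC LN CIS, which overlapped SSM LN CIS at 243.5 CPM, and down to 15.54 CPM in mDC TDLN CIS. Batf3 was highest in the 4 mDC groups, and the other 12 groups lay between 23.29 CPM in SSM LN CIS and 5.746 CPM in SSM LN PBS. Without the crossed libraries Batf3 averaged 24.08 CPM in MSM TDLN CIS and 2.756 CPM in SSM LN PBS, outside those bounds. With all libraries Itgae had the 8 macrophage groups first, from 349.6 CPM in MSM TDLN PBS to 131.3 CPM in MSM LN CIS. The 4 rDC groups followed from 55.32 to 32.41 CPM, then the 4 mDC groups from 8.775 to 5.549 CPM. That order of Itgae rests in part on crossed libraries. Without them SSM TDLN CIS averaged 52.79 CPM, below rDC LN CIS, and SSM LN PBS averaged 96.17 CPM, below MSM LN CIS. Of the 15 pairs of neighbouring groups in each order, the ranges of 3 libraries overlapped in 10 for Xcr1 and Clec9a, 9 for Cadm1, 12 for Wdfy4, 11 for Naaa and Itgae, and 14 for Batf3.

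**Figure D4:**
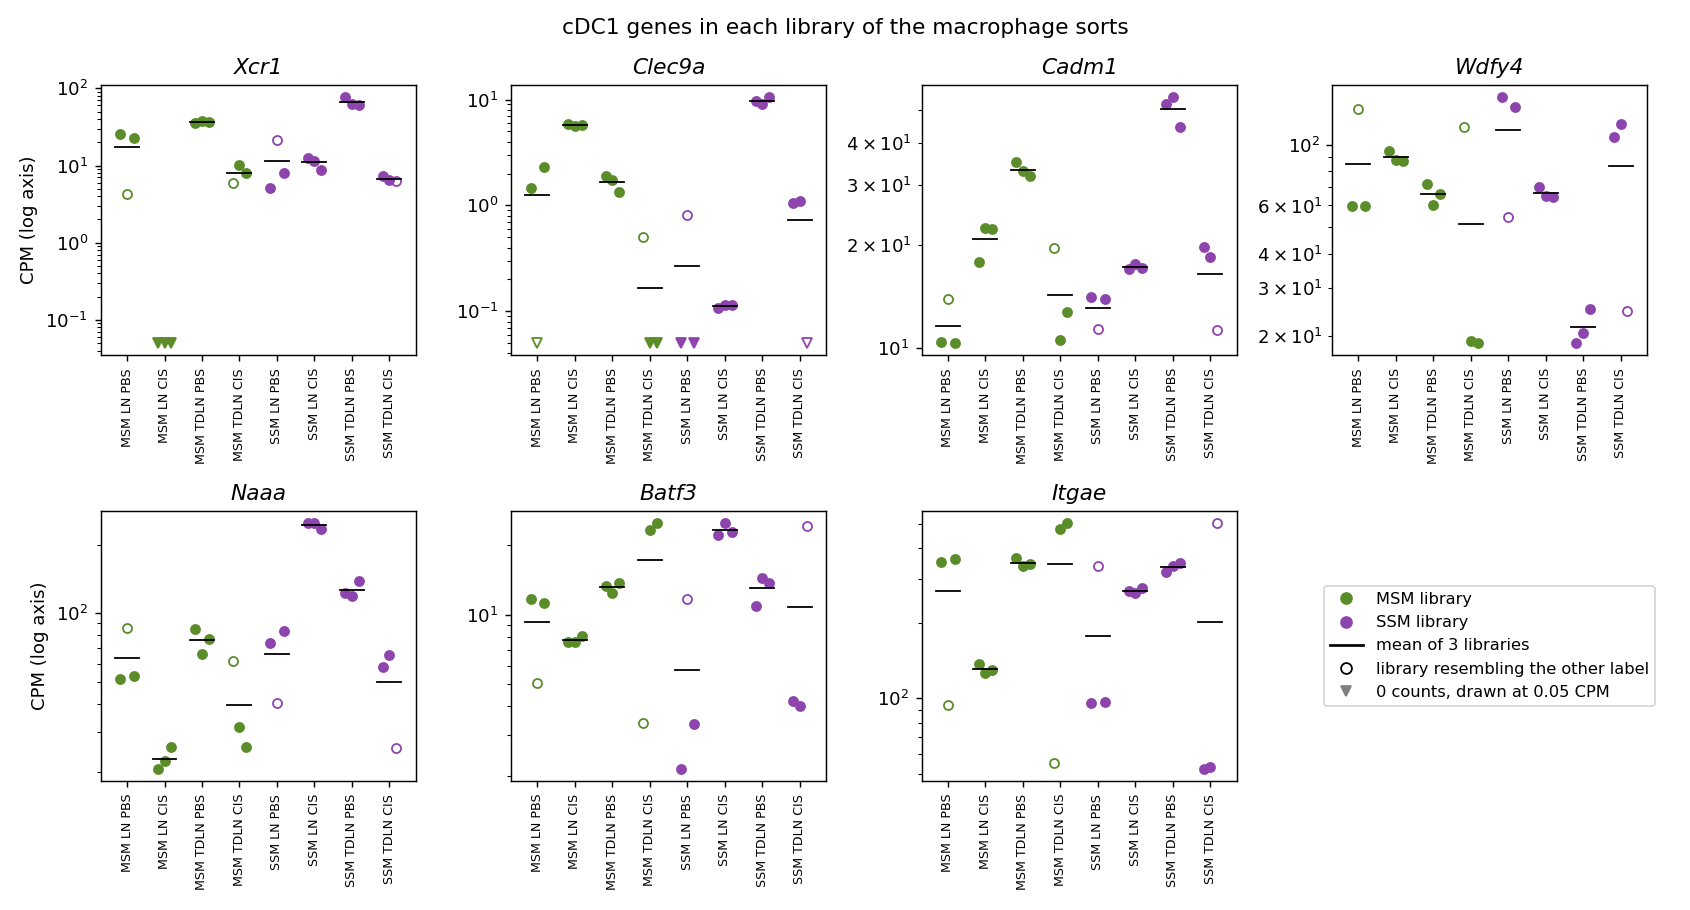
Level of each of the 7 genes in every macrophage library (CPM, log axis, mean of 3 libraries as a line) for the 8 groups of MSM and SSM; open symbols are the 4 crossed libraries and triangles at 0.05 CPM stand for 0 counts. Xcr1 is at 0 counts in all 3 MSM LN CIS libraries, and the crossed libraries lie apart from the other 2 of their group for Itgae.

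In the macrophages the 4 crossed libraries set much of the spread of these genes. Itgae read 352.2, 94.1 and 360.7 CPM in MSM LN PBS and 95.6, 338.7 and 96.74 CPM in SSM LN PBS, where library 2 of each is crossed. In the TDLN after cisplatin it read 55.36, 475.7 and 501.4 CPM in MSM, where library 1 is crossed, and 52.25, 53.33 and 503.4 CPM in SSM, where library 3 is. Each crossed library held the level of the other label. Wdfy4 read 59.91, 134.7 and 59.75 CPM in MSM LN PBS and 149.0, 54.58 and 136.7 CPM in SSM LN PBS, and Batf3 11.64, 5.043 and 11.21 against 2.144, 11.72 and 3.369 CPM. The same held for these 2 genes. With all libraries MSM and SSM differed in 0 of the 7 genes in LN PBS, where edgeR called 0% of 19671 genes, and in 0 in TDLN CIS, also with 0% called. In both, 0 members had an unadjusted p under 0.05 and DESeq2 called 0 of them. In the list of 23 other cDC1 genes and the 9 partners edgeR and DESeq2 called 0 in both, and 0 had an unadjusted p under 0.05. Over all genes 245 and 178 had an unadjusted p under 0.05, and DESeq2 called 2 and 0. Without the crossed libraries, which leaves 2 per group, 4 members were higher and 3 lower in MSM in LN PBS (62.0% of genes called) and 2 higher and 4 lower in TDLN CIS (63.3%). Itgae was then higher in MSM by 1.85 ± 0.0635 and 3.20 ± 0.0679, and Wdfy4 lower by -1.30 ± 0.0945 and -2.57 ± 0.110. The libraries left out were those that resembled the other label in these same data. A separation of MSM and SSM in this fit was thus largely set in advance, and its standard errors are narrowed by that choice.

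Xcr1 fell with cisplatin in the TDLN of both macrophage types. In SSM it read 76.73, 63.45 and 60.13 CPM with PBS and 7.279, 6.428 and 6.343 CPM with cisplatin, far apart. The log2 fold change was -3.32 (adjusted p = 0.00136, and -3.28 ± 0.179 without the crossed library). In MSM it read 35.79, 37.84 and 36.63 CPM, then 5.896, 10.29 and 8.002 CPM, again with no overlap. The value was -2.17 (0.0182), lost without TDLN CIS 3 (0.0556), and -1.98 ± 0.153 without the crossed library. Clec9a in SSM read 9.795, 9.034 and 10.52 CPM with PBS and 1.057, 1.105 and 0 CPM with cisplatin (-3.75, adjusted p = 0.0365). Leaving out any 1 of SSM TDLN CIS 1 or 2 or of the 3 PBS libraries ended that call (0.0782 to 0.101), while without the crossed SSM TDLN CIS 3, the library at 0, the value was -3.16 ± 0.296. In MSM Clec9a read 1.903, 1.737 and 1.342 CPM, then 0.4997, 0 and 0 CPM. Over all libraries edgeR did not call this difference (adjusted p = 0.0791), while DESeq2 did (0.0289). Without the crossed library, the 1 with counts, the level after cisplatin was at least 4.58-fold lower, taking 3 counts per library as the floor. Cadm1 read 51.87, 54.41 and 44.54 then 19.72, 18.48 and 11.26 CPM in SSM (-1.61, 0.000792) and 35.08, 33.0 and 31.94 then 19.69, 10.53 and 12.75 CPM in MSM (-1.20, 0.00325), with no overlap in either.

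Naaa, the lysosomal enzyme, fell in both as well, from 122.3, 119.0 and 138.2 to 58.12, 65.08 and 25.59 CPM in SSM (-1.36, adjusted p = 0.0152) and from 85.5, 66.37 and 77.16 to 61.46, 31.46 and 25.63 CPM in MSM (-0.93, 0.0375). The SSM call was lost without TDLN PBS 3 (0.0568). The MSM call was lost without any 1 of TDLN CIS 2 (0.124) or 3 (0.123) or TDLN PBS 1 (0.0964), 2 (0.0541) or 3 (0.0778), and the value was -1.39 ± 0.121 without the crossed library. For Wdfy4 the types differed in sign. In SSM it read 18.96, 20.64 and 25.24 then 107.1, 118.6 and 24.71 CPM, with the crossed library at the PBS level (1.94, 0.0227, and 2.39 ± 0.0980 without it). The call over all libraries was lost without TDLN CIS 1 or 2 or any 1 PBS library (0.0636 to 0.0818). In MSM it read 72.18, 60.17 and 66.02 then 116.0, 19.3 and 18.88 CPM, not called over all libraries and -1.77 ± 0.0994 without the crossed one. Batf3 in the TDLN read 13.32, 12.41 and 13.69 then 3.398, 23.27 and 24.88 CPM in MSM and 10.93, 14.37 and 13.73 then 4.227, 4.017 and 24.17 CPM in SSM. Without the crossed libraries it was higher after cisplatin in MSM (0.90 ± 0.137) and lower in SSM (-1.66 ± 0.198), and Itgae likewise (0.51 ± 0.0560 and -2.67 ± 0.0650).

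Over all libraries 3 of the 7 were called for cisplatin in MSM of the TDLN, all lower (37.1% of 17002 genes called), and 5 in SSM, 1 higher and 4 lower (23.0% of 16886). Without the crossed libraries it was 2 higher and 5 lower in MSM (69.0% called) and 1 higher and 6 lower in SSM (71.1%). Of the 23 other cDC1 genes 2 rose and 8 fell in MSM (median -0.30 against 0.19 over all genes) and 0 rose and 6 fell in SSM (-0.28 against 0.03), with Ifi205, an interferon-induced gene, at -1.94 and -3.08 and Ppt1 at -1.40 and -1.19. Of the 9 partners 2 rose and 0 fell in MSM (median 0.27), and 1 rose and 2 fell in SSM (-0.67). Lymphocyte markers differed in the same groups. The 7 T cell markers, Cd8a among them, summed to 2053.4 to 2197.7 CPM in SSM TDLN PBS and 578.4 to 1774.8 CPM in SSM TDLN CIS, and to 2296.4 to 2404.3 and 614.5 to 1829.6 CPM in MSM. The 6 NK markers summed to 34.8 to 36.7 and 10.3 to 38.1 CPM in SSM, where Gzma was at 0 after cisplatin, and the 7 general dendritic cell markers to 10847.6 to 12342.3 and 4071.5 to 21782.9 CPM. Myeloid markers moved further. The 5 mast cell markers summed to 0.0 to 0.3 CPM in MSM TDLN PBS, with 4 of the 5 at 0, and 1770.9 to 2975.7 CPM in MSM TDLN CIS, and to 5.1 to 8.9 and 1771.5 to 3001.2 CPM in SSM, where Cma1 was at 0 with PBS. The 6 neutrophil markers summed to 7599.5 to 7892.0 CPM with PBS and 620.3 to 5274.9 CPM with cisplatin in MSM, and to 124.1 to 157.0 and 566.7 to 5230.2 CPM in SSM. The part of these markers in the lower levels of Xcr1, Clec9a, Cadm1 and Naaa after cisplatin was not tested.

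**Figure D5:**
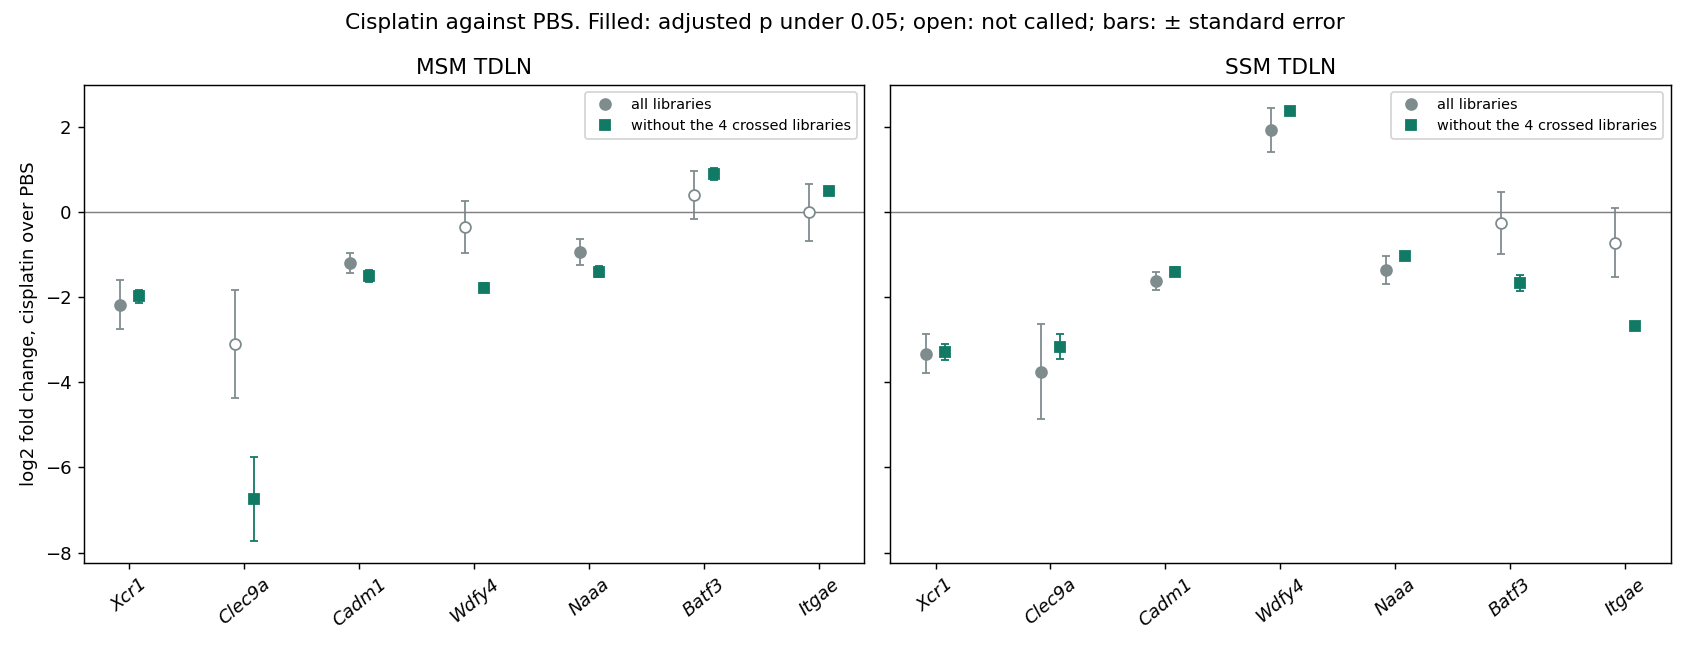
Log2 fold change (with standard error) of cisplatin over PBS for the 7 genes in MSM and SSM of the TDLN, over all libraries and without the 4 crossed libraries. Xcr1, Cadm1 and Naaa lie below 0 in both types and both fits, while Wdfy4, Batf3 and Itgae lie on opposite sides of 0 in MSM and SSM once the crossed libraries are left out; the MSM value of Clec9a without them rests on 0 counts.

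In the LN the MSM libraries after cisplatin held 0 counts of Xcr1 in all 3 libraries, against 25.47, 4.292 and 22.42 CPM with PBS, where library 2 is crossed. With 3 counts per library as the floor the level was at least 44.8-fold lower (adjusted p = 0.000241). The same libraries had the highest Clec9a of the macrophages outside SSM TDLN PBS, at 5.876, 5.652 and 5.751 CPM against 1.455, 0 and 2.293 CPM with PBS (not called over all libraries, and 1.62 ± 0.327 without the crossed one). Naaa fell from 51.3, 85.84 and 52.62 to 20.64, 22.36 and 25.7 CPM (-1.47, adjusted p = 0.00438). Cadm1 rose from 10.43, 13.95 and 10.32 to 17.91, 22.49 and 22.27 CPM (0.85, 0.0157), a call lost without MSM LN CIS 2 or 3 or LN PBS 1 or 3 (0.0572 to 0.0580) and 1.01 ± 0.149 without the crossed library. Itgae read 137.7, 126.4 and 129.7 CPM after cisplatin, between the crossed PBS library at 94.1 and the other 2 (-1.44 ± 0.0581 without it). Wdfy4 read 94.59, 87.85 and 87.24 CPM and Batf3 7.596, 7.618 and 8.076 CPM. Together 1 of the 7 was called higher and 2 lower (43.4% of genes called), and 3 higher and 4 lower without the crossed library (74.0%). These are the libraries that were poor in macrophage genes, and they carried Ccr7 at a mean of 3500 CPM, Zbtb46, a factor of conventional dendritic cells, at 96.9 CPM, 6 B cell markers at 3650.3 to 3720.7 CPM, 6 NK markers at 257.3 to 277.5 CPM and 5 mast cell markers at 1744.2 to 1766.4 CPM, against 205.7 to 2910.5, 12.2 to 38.0 and 33.9 to 1002.4 CPM for those 3 lists in MSM LN PBS. The part of these other markers in the values was not tested. Among the 23 other cDC1 genes 6 rose and 7 fell (median 0.01 against -0.15 over all genes), with Rab7b at -2.59, Ppt1 at -1.05 and Sec22b, a SNARE of the endoplasmic reticulum, at 0.65. Among the 9 partners 1, Flt3, rose (2.98), and 0 fell (median 0.48).

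In SSM of the LN cisplatin changed Naaa alone of the 7 over all libraries, from 74.16, 40.16 and 83.16 to 247.7, 249.0 and 233.9 CPM (1.88, adjusted p = 0.00667), where 13.3% of genes were called. The 3 cisplatin libraries stood well above. Batf3 read 22.14, 24.96 and 22.78 CPM, Itgae 268.7, 264.0 and 275.7 CPM, Xcr1 12.68, 11.39 and 8.842 CPM against 5.165, 21.7 and 7.895 CPM, Cadm1 16.98, 17.6 and 17.12 against 14.13, 11.32 and 13.9 CPM, and Wdfy4 69.85, 65.22 and 64.61 CPM. Clec9a had 1 count in each cisplatin library. Without the crossed libraries 5 members were higher and 1 lower (60.0% called), with Batf3 at 3.10 ± 0.200, Naaa at 1.65 ± 0.0809, Itgae at 1.51 ± 0.0602, Xcr1 at 0.78 ± 0.206, Cadm1 at 0.32 ± 0.123 and Wdfy4 at -1.08 ± 0.0866. In the list of 23 other cDC1 genes 3 rose and 3 fell (median -0.18 against -0.04 over all genes), and of the 9 partners edgeR called 0, with 2 at an unadjusted p under 0.05 and 0 by DESeq2 (median -0.18). Other cells' markers differed too: the 4 monocyte markers summed to 263.9 to 657.3 CPM with PBS and 1567.5 to 1697.2 CPM with cisplatin, the 6 neutrophil markers to 116.3 to 4305.9 and 26.5 to 32.2 CPM (Ly6g at 0), the 5 mast cell markers to 26.1 to 955.8 and 12.7 to 13.3 CPM (Mcpt4 and Tpsb2 at 0), and the 6 B cell markers to 210.8 to 2785.7 and 171.1 to 178.6 CPM. Their part was not tested.

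Between nodes with PBS, Cadm1 was the 1 member called in MSM, higher in the TDLN by 1.51 (adjusted p = 0.000935, 38.2% of genes called), and without the crossed library Naaa at 0.54 ± 0.112 and Xcr1 at 0.60 ± 0.134 were higher too, 3 higher and 0 lower (69.7%). In SSM 4 were called (19.7%). Xcr1 was higher in the TDLN by 2.53 (0.00429), Cadm1 by 1.94 (0.000400) and Clec9a by 5.25 (0.0169), and Wdfy4 was lower by -2.39 (0.0114). The Clec9a call was lost without LN PBS 1 or 3 or any 1 TDLN library (0.0527 to 0.0579), and without the crossed LN PBS 2, where the other 2 libraries hold 0 counts, the level was at least 32.2-fold higher in the TDLN. The Wdfy4 call was lost without TDLN PBS 1 (0.0536) or 2 (0.0550). Without the crossed library 6 were higher and 1 lower (67.8%), with Xcr1 at 3.39 ± 0.179 and Wdfy4 at -2.70 ± 0.0965. After cisplatin MSM differed between nodes in 2 members (43.3%): Xcr1 was at least 20.8-fold higher in the TDLN (0.000526) and Clec9a was lower (0.0125), by at least 15.9-fold without the crossed library. Both values are set against the MSM LN CIS libraries, which were poor in macrophage genes. SSM differed in Naaa alone, lower in the TDLN by -2.29 (0.00180, 17.4%). Without the crossed libraries 4 were higher and 3 lower in MSM (74.4%) and 2 higher and 4 lower in SSM (61.9%). Of the 23 other cDC1 genes, 3 were higher and 3 lower in MSM and 3 and 2 in SSM with PBS (medians 0.27 and 0.44 against -0.21 and -0.04 over all genes), and 5 and 5 in MSM and 3 and 5 in SSM with cisplatin (0.06 and 0.03 against 0.15 and 0.05). Of the 9 partners 1 was higher and 4 lower in MSM and 1 and 2 in SSM with PBS (medians -0.41 and 0.91). With cisplatin 1 was lower in MSM (median -1.23), and in SSM edgeR called 0, with 1 at an unadjusted p under 0.05 and 0 by DESeq2 (median 0.03). The node groups also differed in markers of other cells. With PBS the 6 neutrophil markers summed to 169.0 to 4423.4 CPM in MSM of the LN and 7599.5 to 7892.0 CPM in the TDLN, the 6 B cell markers to 205.7 to 2910.5 and 26.3 to 30.7 CPM, and the 5 mast cell markers to 33.9 to 1002.4 and 0.0 to 0.3 CPM. In SSM the neutrophil sums with PBS were 116.3 to 4305.9 and 124.1 to 157.0 CPM and the mast cell sums 26.1 to 955.8 and 5.1 to 8.9 CPM. With cisplatin the neutrophil sums were 13.6 to 16.4 CPM in the LN and 620.3 to 5274.9 CPM in the TDLN in MSM, and 26.5 to 32.2 and 566.7 to 5230.2 CPM in SSM. The mast cell sums with cisplatin were 1744.2 to 1766.4 and 1770.9 to 2975.7 CPM for MSM, and for SSM 12.7 to 13.3 and 1771.5 to 3001.2 CPM. The part of these markers was not tested, here or in the node differences of the cisplatin effect.

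The cisplatin effect differed between nodes in 3 members in MSM (40.7% of genes called), Xcr1, Clec9a and Cadm1, the last by -2.05 (adjusted p = 0.000847). The Xcr1 and Clec9a values involve groups at 0 counts, and the Clec9a call was lost in 8 of the fits that left out 1 library (0.0521 to 0.0591). All MSM values here include the MSM LN CIS libraries, poor in macrophage genes. In SSM 4 members differed (21.6%): Xcr1 by -3.23, Cadm1 by -1.99, Naaa by -3.24 and Wdfy4 by 2.72 (0.0226), the last lost in 9 such fits (0.0524 to 0.0595). Without the crossed libraries 3 were higher and 3 lower in MSM (65.1%) and 1 higher and 6 lower in SSM (65.8%). Of the other cDC1 genes 4 were higher and 4 lower in MSM and 2 and 5 in SSM (medians -0.25 and -0.36 against 0.58 and 0.12 over all genes), and of the partners 2 were higher and 1 lower in each (0.84 and -0.81).

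In the 2 macrophage comparisons that no crossed library enters, MSM and SSM differed as follows. In LN CIS, where 49.7% of genes were called, Clec9a was higher in MSM by 5.51 (adjusted p = 0.00430, with 1 count in each SSM library), Naaa was lower by -3.41 (4.37e-07) and Xcr1 was at least 28.2-fold lower (2.15e-06). The MSM libraries of that comparison are those poor in macrophage genes. In TDLN PBS, where 40.8% were called, Wdfy4 was higher in MSM by 1.61 (0.0417) and Cadm1 lower by -0.59 (0.0355). Leaving out any 1 of the 6 libraries ended the Wdfy4 call (0.0690 to 0.120), and 5 of the 6 ended the Cadm1 call (0.0716 to 0.149). The crossed libraries still enter the shared estimate of spread, and without them 3 members were higher and 4 lower in MSM in LN CIS (72.4%) and 1 higher and 4 lower in TDLN PBS (67.1%). Among the 23 other cDC1 genes 9 were higher and 6 lower in LN CIS (median 0.10 against -0.12 over all genes) and 1 higher and 4 lower in TDLN PBS (0.10 against -0.06), and of the partners 2 were higher in LN CIS (median 0.79) and 2 lower in TDLN PBS (-0.22). In TDLN PBS the sum of 6 neutrophil markers was 7599.5 to 7892.0 CPM for MSM but 124.1 to 157.0 CPM for SSM, and the 6 B cell markers to 26.3 to 30.7 and 757.2 to 769.5 CPM. In LN CIS the 5 mast cell markers came to 1744.2 to 1766.4 CPM for MSM but 12.7 to 13.3 CPM for SSM, and the 6 B cell markers to 3650.3 to 3720.7 and 171.1 to 178.6 CPM. Their part was not tested.

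The genes whose level followed Xcr1 most closely were named in each set of libraries by Pearson's r of log2 CPM, among genes averaging at least 4 CPM. These are descriptions over libraries that share groups, and no test was made. Over the 12 rDC libraries, among 11373 genes, they included Slamf7 (0.972), Lyz1 (0.968), H2afz (0.961) and Ftl1-ps1 (0.960), and the r of the other members with Xcr1 was 0.922 for Cadm1, 0.837 for Naaa, 0.736 for Clec9a, 0.683 for Batf3, 0.661 for Wdfy4 and -0.894 for Itgae. The 3 deepest rDC libraries are also the 3 with the highest Xcr1. Over the 12 mDC libraries, among 11400 genes, they were Mogs (0.933), Hfe (0.932), Cd209d (0.920), Per1 (0.919) and Cpt1a (0.916), and the members gave 0.791 for Clec9a, 0.698 for Naaa, 0.298 for Cadm1, 0.197 for Wdfy4, -0.021 for Itgae and -0.295 for Batf3. Over the 24 macrophage libraries, among 11626 genes, they were Smpd3 (0.979), Rbpms2 (0.978), Zfp619 (0.973), Dtx4 (0.964) and AI854703 (0.962), while the members lay between -0.436 for Wdfy4 and 0.577 for Naaa. Itgae was thus the member that ran against Xcr1 in rDC.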

How the data were processed

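Polyadenylated RNA was sequenced from 48 libraries in 16 groups of 3. The submitters' processing notes name STAR, RSEM 1.3.0, DESeq2 1.38.3 and the build GRCm38. The authors deposited expected counts of RSEM as whole numbers, and these were tested. TPM of the dendritic cells were also deposited by the authors, while the macrophage TPM were deposited with decimals dropped and were treated as a score. Each of 24 columns of either counts table matched its own TPM or score column best. In the dendritic cell tables the columns named for tumor were taken as TDLN, and, by elimination, those named for wild type as LN.

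Genes were kept with filterByExpr by group, scaled with TMM and tested with edgeR 4.0.16 (quasi-likelihood test) in 1 model of 4 groups per cell type, or of 8 groups for mDC against rDC and MSM against SSM. The p-values were adjusted by Benjamini-Hochberg over all genes tested (limit 0.05), and a standard error is the fold change (log2) divided by the root of F. CPM are scaled by TMM over the 24 libraries of a table. All 7 members are reported throughout, with up to 4 genes per list and comparison, taken by smallest adjusted p, of which part is printed, and with the 5 genes most like Xcr1 per set of libraries, of which some are not reported here. The members and lists were chosen with earlier results of these data known. Alternatives were a replicate block, DESeq2 1.42.0 or only its size factors, all genes with no filter, a fit of just the compared libraries, leaving out each library, deep libraries thinned to 3 M counts and leaving out the 4 crossed libraries. The script was tested on simulated counts. No 2 libraries agreed within sampling noise: chi-square per degree of freedom was 1.76 or more in all 48 pairs of replicates. Software was R 4.3.3 with limma 3.58.1, and Python 3.11.15 with matplotlib 3.10.9, numpy 2.4.6 and pandas 2.3.3.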

Additional observations from a re-analysis of the deposited data

Results flagged for a closer look

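Each of the following is a difference between the nodes in the effect of cisplatin (TDLN minus LN, log2 scale) that passed edgeR's test of the difference itself at an adjusted limit of 0.05. In mDC it was Wdfy4 at -0.83. In rDC they were Xcr1 at 0.88, Clec9a at 0.87, Naaa at 0.69, Cadm1 at 0.62 and Itgae at -0.92. In MSM they were Xcr1 at 8.01, Clec9a at -5.30 and Cadm1 at -2.05, where the fitted values of Xcr1 and Clec9a depend on libraries at 0 counts and are no estimate of size. These MSM values also include the MSM LN CIS libraries, which were poor in macrophage genes. In SSM they were Xcr1 at -3.23, Naaa at -3.24, Cadm1 at -1.99 and Wdfy4 at 2.72. Both macrophage types include a crossed library in 2 of the 4 groups entering the difference.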

How the results depend on the processing

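Without the low-count filter 2 members were called for cisplatin in mDC of the LN (1 with it), 3 for the mDC node difference (1), 3 in place of 2 other genes for cisplatin in mDC of the TDLN, 7 for the rDC node difference (5) and for TDLN against LN with PBS in rDC (5), 1 for TDLN against LN after cisplatin in rDC (2) and 0 for MSM against SSM in TDLN PBS (2), and Batf3 for TDLN against LN with PBS in mDC turned to 0.24. In that comparison Cadm1 was then called (0.45, adjusted p = 0.00635 by edgeR), and Naaa (-0.32, 0.117) and Itgae (-0.50, 0.185) were not. With the 6 compared libraries alone 7 were called for TDLN against LN with PBS in rDC (5), 0 for TDLN against LN after cisplatin in rDC (2), and 7 and 5 for MSM against SSM in LN CIS (3) and TDLN PBS (2). DESeq2 called 7 for the rDC node difference (5) and 2 for cisplatin in SSM of the LN (1). With a replicate block 3 members were called for cisplatin in SSM of the TDLN (5) and 2 in MSM (3), and all 98 dendritic cell values kept their side of the limit. No pairing by replicate number was seen: 0 of 24 comparisons had every correlation of same-numbered libraries over 0.1. Crossed libraries enter some of these comparisons, and the check cannot show whether same-numbered libraries share a mouse.

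Without the 4 crossed libraries 7, 7, 3, 7 and 6 members were called in MSM for cisplatin in the LN, cisplatin in the TDLN, node with PBS, node with cisplatin and the node difference, and in SSM 6, 7, 7, 6 and 7. For MSM against SSM it was 7, 7, 5 and 6 in LN PBS, LN CIS, TDLN PBS and TDLN CIS. The 4 libraries were picked from these same data for resembling the other label, so higher counts without them were largely set in advance. Itgae for cisplatin in MSM of the TDLN turned to 0.51, and Xcr1 for cisplatin in SSM of the LN to 0.78 (-0.44 to 0.77 with 1 library left out, the highest without SSM LN PBS 2).

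Leaving out 1 library at a time gave, in mDC, 1 to 2 called members for cisplatin in either node and for the node difference and 4 to 5 for the node with PBS. In rDC it gave 7 for cisplatin in the LN, 0 for cisplatin in the TDLN, 4 to 5 and 1 to 3 for the node with PBS and with cisplatin, and 5 to 7 for the node difference. In MSM the ranges, in the order above, were 2 to 3, 1 to 6, 1 to 1, 2 to 6 and 2 to 6, and in SSM 1 to 3, 2 to 7, 2 to 5, 1 to 4 and 3 to 6. Each mDC against rDC comparison gave 7, and MSM against SSM gave 3 in LN CIS and 0 to 1 in TDLN PBS.

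Another scaling (DESeq2's size factors) moved the median of all genes by over 0.1 in 2 of 28 comparisons, by 0.12 for MSM against SSM in LN CIS and by -0.13 for the MSM node difference, and changed the sign of no called member. Dropping the filter moved that median by over 0.1 in 14 of 28. In mDC the shift was 0.26 for cisplatin in the TDLN and -0.34 for the node with PBS. In rDC it was 0.19 for the node with PBS and -0.18 for the node difference. Member calls gained or lost without the filter are read beside these shifts. Depth limits Clec9a, at 6 to 19 counts per library in mDC of the TDLN and at 0 or 1 count in several macrophage libraries.

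The number of all genes called also moved by over 1.5 times. In rDC, without the filter, it was 7427 for cisplatin in the LN (2509 with it), 235 for cisplatin in the TDLN (142), 6354 for the node with PBS (3781) and 1845 for the node difference (745). In mDC it was 9422 for cisplatin in the TDLN (3416), 11594 for the node with PBS (3639) and 5357 for the node difference (1952). With the compared libraries alone the rDC counts were 4707 for cisplatin in the LN, 88 for cisplatin in the TDLN, 5829 for the node with PBS and 1043 for the node with cisplatin (2075), and DESeq2 gave 216 for cisplatin in the TDLN. With 1 library left out, the node with PBS in rDC gave 2366 without LN PBS 2, cisplatin in the LN 1581 without LN CIS 2, the node with cisplatin 1293 without LN CIS 3, cisplatin in the TDLN gave 82 to 613, and the node difference 485 to 1784. In SSM the reported counts for the 5 comparisons (cisplatin in the LN, cisplatin in the TDLN, node with PBS, node with cisplatin, node difference) were 2240, 3883, 3321, 2945 and 3649, with a replicate block 1206, 2476, 2118, 1851 and 2375, and with 1 library left out 803 to 4441, 1818 to 8810, 1400 to 6471, 1305 to 6289 and 2170 to 7440, the highest being without SSM LN PBS 2 or SSM TDLN CIS 3. For cisplatin in SSM of the LN DESeq2 gave 3554 and the fit without the filter 1448. MSM against SSM in LN PBS gave 236 without MSM LN PBS 2 (0 with it). DESeq2 gave 2 there. Without the 4 crossed libraries the counts were 13602, 12674, 12812, 13672 and 11954 in MSM (7376, 6305, 6489, 7363 and 6928 with them) and 10574, 12540, 11947, 10923 and 11607 in SSM. For MSM against SSM they were 12612 in LN PBS (0), 14728 in LN CIS (9783), 13644 in TDLN PBS (8019) and 12867 in TDLN CIS (0).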
